A study of Mus musculus with 2 samples.

Results

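The members of this gene family were chosen by name: 7 matrix metalloproteinases (Mmp7, Mmp8, Mmp9, Mmp10, Mmp12, Mmp13 and Mmp14) and 3 of their tissue inhibitors (Timp1, Timp2 and Timp3), which makes 10 of the 32291 features of the expression table. Their mRNA was followed across 11 annotated cell types of colitis-associated colon tumors (CACs) from mice with floxed Mir34a alleles, with or without deletion of Mir34a in myeloid cells. Each genotype was a single pooled library of 6 to 8 tumors from 3 female C57Bl/6 mice, so no difference between genotypes has a replicate and no test was made. All 95% intervals cover counting error only.

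Both libraries came from animals with loxP-flanked Mir34a alleles that received azoxymethane (AOM, a colon carcinogen, 10 mg/kg) 5 days ahead of each of the first 2 colitis periods. Colitis was induced with dextran sodium sulfate (DSS, which injures the colon lining) at 2.5% in these periods and at 2% in a last one, each of 5 days, and the tumors were collected 110 days after the first AOM dose. Animals were 6 to 10 weeks old at the start. By the study's description, the library labelled Mir34a_F/F had no Cre, and the library labelled Mir34a_Mye_KO carried LysM-Cre, a Cre inserted at the lysozyme gene Lyz2 that acts in macrophages, monocytes and neutrophils and is not expected to act in epithelium, lymphocytes or stroma. Below they are called the F/F-labelled and the Mye_KO-labelled library.

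Matrix metalloproteinases are zinc-dependent endopeptidases that are made as inactive proenzymes and cleave collagens, gelatin, elastin and other components of the extracellular matrix, as well as cytokines and cell surface proteins. TIMPs are secreted proteins that bind the active site of these enzymes and block them, while TIMP-2 also takes part in the activation of pro-MMP-2 at the cell surface by MMP-14. In intestinal tumors and inflamed colon these proteases come from tumor cells as well as from stromal and myeloid cells. mRNA levels as measured here do not report on proenzyme activation or on the amount of active enzyme.

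The libraries held 20312 and 18571 cells with 147109016 and 193133086 UMIs (unique molecular identifiers, each standing for 1 counted mRNA molecule), with medians of 4787 and 7716 UMIs per cell. The Mye_KO-labelled library was the deeper one in 11 of 11 cell types. Of 5 marker genes per type, 5 were highest in their own type in both libraries for 10 types, while for basophils 3 of 5 were, because Fcer1a and Ms4a2 were higher in mast cells. Basophils (48 and 40 cells) also held neutrophil markers at a summed level of 543 and 431 UMIs per 10000, against 1557 and 1107 in neutrophils, and are therefore given only in passing. The libraries shared 96 cell barcodes. The feature mir34apri had 133 UMIs in macrophages of the F/F-labelled and 462 in those of the Mye_KO-labelled library (0.0683 and 0.139 per 10000), and was thus not lower in the library labelled as deleted. Lyz2, the gene that carries the Cre insertion, had a level of 2.00 and 0.415 there, lower in the library labelled as having this insertion. In neutrophils Lyz2 was at only 0.256 and 0.0842. The feature crenlslyz2 had 451 and 172 UMIs (0.232 and 0.0518 per 10000) and the feature crenls 0 in both, so that the feature named for both Cre and Lyz2 followed Lyz2 and was not higher in the Mye_KO-labelled library. Which bases mir34apri and crenlslyz2 cover is not given in the sources used here. Whether reads of Lyz2 were shared with crenlslyz2 was not tested, so Lyz2 is not read as a check of the labels. The libraries are therefore called by their labels throughout.

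Of the proteases, 5 members lie within a stretch of 427 kb on mouse chromosome 9 (GRCm38) in which all 9 annotated protein-coding genes are Mmp genes, in the order Mmp13, Mmp12, Mmp1b, Mmp3, Mmp10, Mmp8, Mmp27, Mmp20 and Mmp7. Among them, Mmp13 spans chr9:7272514-7283331, Mmp12 chr9:7344381-7369499, Mmp10 chr9:7502352-7510240, Mmp8 chr9:7558456-7568485 and Mmp7 chr9:7692090-7699585, all on the plus strand. The others lie apart, with Mmp9 at chr2:164940780-164955850, Mmp14 at chr14:54431612-54445364, Timp1 at chrX:20870166-20874735, Timp2 at chr11:118301069-118355740 and Timp3 at chr10:86300372-86349506. Timp1, Timp3 and Mmp12 overlap Syn1, Syn3 and Mmp1b, all on the opposite strand, as Mmp7 does AV064505, and Timp2 overlaps Cep295nl on the same strand, so that counting by strand would not separate these. Whether strand was used in counting is not given in the sources used here.

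Promoters of the clustered genes are shown because 4 of these 5 genes shared a short element. Of the 4, Mmp12 was led by macrophages, Mmp7 by epithelial cells and Mmp10 by fibroblasts, and Mmp13 by macrophages over both libraries together. AP-1 factors (Fos and Jun proteins), which respond to growth factor and inflammatory signals, bind TGAGTCA, which reads TGACTCA on the other strand. In RefSeq (GRCm38.p6) 9 of the 10 members had a promoter entry, with 11 promoters in all. In the 250 bases before the start, one of these letter strings was found for Mmp7, Mmp10, Mmp12 and Mmp13, but not for Mmp8, Mmp14, Timp1, Timp2 or Timp3. This makes 4 of the 11 promoters, since Mmp7 and Mmp12 each had another promoter without a match, while 4.46% of 32851 promoters held one. The Mmp12 match lies at a start inside the annotated gene. The 100 bases before the start are given 5′ to 3′ on the gene's strand, which is the plus strand for these 4 genes, with the AP-1 letters in capitals. The coordinates are chr9:7272414-7272513 for Mmp13, chr9:7347274-7347373 for Mmp12, chr9:7502242-7502341 for Mmp10 and chr9:7691990-7692089 for Mmp7.
Mmp13: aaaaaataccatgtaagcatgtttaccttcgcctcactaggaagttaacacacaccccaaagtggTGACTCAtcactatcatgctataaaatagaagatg
Mmp12: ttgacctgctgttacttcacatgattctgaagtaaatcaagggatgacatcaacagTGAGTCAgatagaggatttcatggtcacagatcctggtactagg
Mmp10: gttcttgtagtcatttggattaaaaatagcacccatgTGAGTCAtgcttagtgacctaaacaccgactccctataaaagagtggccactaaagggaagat
Mmp7: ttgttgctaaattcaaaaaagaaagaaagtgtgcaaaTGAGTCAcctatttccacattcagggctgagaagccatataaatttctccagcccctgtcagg
The AP-1 letters began 63 bases before the start in Mmp7 and in Mmp10, 44 bases before it in Mmp12 and 35 bases before it in Mmp13. Mmp7, Mmp10 and Mmp13 also held the TATA box letters TATAAA, which 7.59% of promoters held on the gene's strand, while this Mmp12 promoter did not.

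The microRNA deleted by the study's design pairs with target mRNAs mainly through its seed, bases 2 to 8, shown in capitals in its mature form from the plus strand of chr4:150068473-150068494.
mmu-miR-34a-5p: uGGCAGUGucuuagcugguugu
The letters complementary to this seed, CACTGCC, occurred in the annotated 3′ UTR of 0 of the 10 members, against 2764 of 20643 genes (13.4%). The members' UTRs ranged from 103 bases (Timp1) to 3604 bases (Timp3), and the median of all genes was 852 bases. Absence of these letters says only that a full seed match is not in the annotated UTR.

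The members were divided between stromal, myeloid and epithelial cells. The level used here is the number of UMIs of a gene per 10000 UMIs, summed over all cells of a type. Macrophages led for Mmp12, neutrophils for Mmp8 and Mmp9, epithelial cells for Mmp7, and fibroblasts for Mmp10, Mmp14, Timp1, Timp2 and Timp3. For Mmp7 this depends on the measure, since by the mean over cells erythroid cells led. The leading type was the same in both libraries for 9 of the 10 members, with Mmp13 as the exception, while it was the same for 50.3% of 20363 genes with at least 20 UMIs in each library. The members had 231 to 41614 UMIs in a library, and the share among genes with similar UMIs was not counted. The 2 shares are therefore not read against each other.

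**Figure D1:**
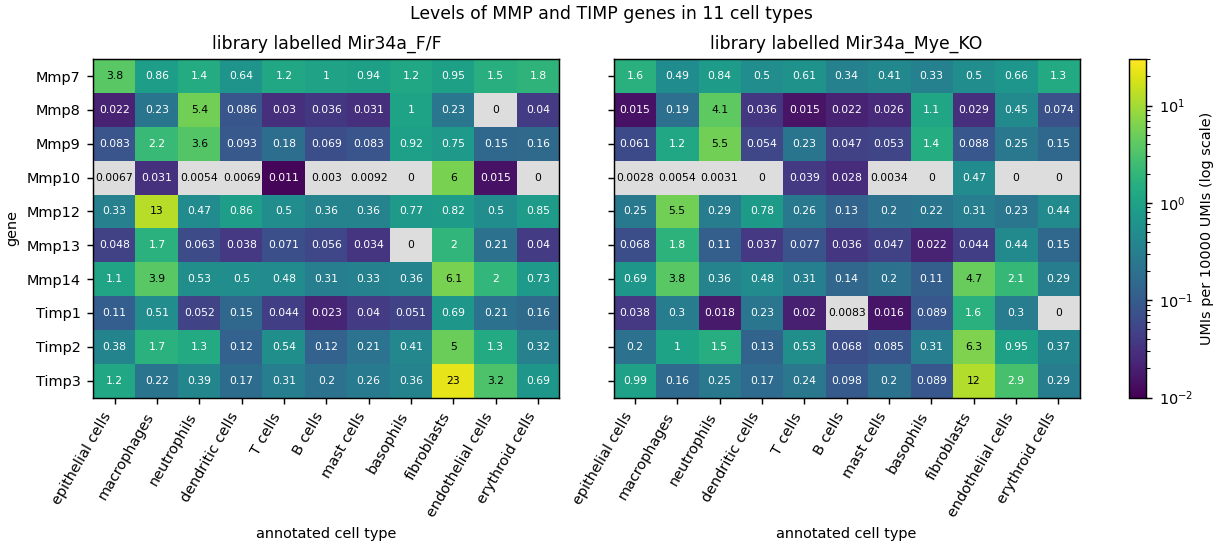
Level of each member (UMIs per 10000 UMIs, logarithmic colour scale) in the 11 annotated cell types, with the library labelled Mir34a_F/F and the library labelled Mir34a_Mye_KO side by side; grey marks levels under 0.01. Mmp12 stands out in macrophages, Mmp8 in neutrophils, Mmp7 in epithelial cells and Timp3 in fibroblasts in both libraries.

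Mmp12, the macrophage elastase, was concentrated in macrophages. It reached 12.5 UMIs per 10000 (95% interval 12.4 to 12.7) in the F/F-labelled and 5.47 (5.39 to 5.55) in the Mye_KO-labelled library. Macrophages held 83.7% and 81.5% of all Mmp12 UMIs. The next type, dendritic cells, had 0.857 and 0.777, so macrophages were apart from every other type in both libraries. Mmp12 UMIs were found in 46.8% and 43.6% of macrophages. After each cell was thinned to 1000 UMIs, which removes the difference in depth, these shares were 23.4% and 17.5%. In T cells, taken as the background type, they were 6.13% and 3.37% after thinning and 18.2% and 19.6% without thinning. T cells need not lack every member, since their Timp2 level was 0.544 and 0.528, against 0.122 and 0.0677 in B cells.

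Mmp13, a collagenase that cleaves fibrillar collagens, was also a macrophage gene in these tumors. Its macrophage level was 1.67 (1.62 to 1.73) in the F/F-labelled and 1.77 (1.73 to 1.82) in the Mye_KO-labelled library, and macrophages held 81.9% and 84.6% of its UMIs. Fibroblasts of the F/F-labelled library had 1.96 (1.49 to 2.52), an interval that overlaps that of macrophages, but 48 of these 60 UMIs came from 1 of 57 cells. Fibroblasts of the Mye_KO-labelled library had 3 Mmp13 UMIs in all. Mmp13 was detected in 21.3% and 27.1% of macrophages, and in 7.71% and 9.25% after thinning, against 0.83% and 1.06% of thinned T cells.

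Mmp8, the neutrophil collagenase, is stored in the specific granules of neutrophils. Its level in neutrophils was 5.44 (5.25 to 5.63) and 4.12 (3.99 to 4.25), which made up 79.8% and 80.4% of its UMIs. Among thinned neutrophils 30.6% and 23.6% held a UMI, against 0.30% and 0.11% of thinned T cells. Basophils had 1.02 and 1.11, in cells that also held the neutrophil markers given above. Endothelial cells of the Mye_KO-labelled library had 35 UMIs, all in 2 cells, and those of the F/F-labelled library had 0. The summed neutrophil markers in endothelial cells were 74.9 and 5.25 per 10000, in the same order of libraries.

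Mmp9, gelatinase B, which cleaves gelatin and basement membrane collagen, was shared by both myeloid types. In the F/F-labelled library its level was 3.55 (3.40 to 3.71) in neutrophils and 2.24 (2.17 to 2.30) in macrophages. In the Mye_KO-labelled library these levels were 5.51 (5.36 to 5.66) and 1.23 (1.19 to 1.26). Macrophages, with 19470961 UMIs of all genes against 5587077 in neutrophils, held 57.9% of the Mmp9 UMIs in the F/F-labelled library and neutrophils 26.4%. In the Mye_KO-labelled library neutrophils held 49.4% and macrophages 38.0%, with 9620025 and 33225004 UMIs of all genes. Mmp9 was found in 62.8% and 75.5% of neutrophils (28.1% and 36.8% after thinning) but in only 16.9% and 13.6% of macrophages (7.16% and 5.24%). The thinned shares in T cells were 1.5% and 2.01%.

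Mmp7, matrilysin, which is made by Paneth cells and by intestinal tumor cells, was the epithelial member of the family. Epithelial cells had 3.83 (3.79 to 3.87) and 1.61 (1.58 to 1.63) UMIs per 10000 and held 87.0% and 72.6% of all Mmp7 UMIs. Its UMIs also appeared in every other type. Thinned T cells with a Mmp7 UMI made up 13% and 7.53%, against 17.1% and 13.2% of thinned epithelial cells. Erythroid cells, with 106 and 30 cells, came next with 1.82 and 1.33, and in the Mye_KO-labelled library their interval (0.786 to 2.10) covered the epithelial level. The summed epithelial markers in erythroid cells were 44.0 and 29.8 per 10000, in T cells 24.6 and 12.8, and in epithelial cells 80.6 and 56.9.

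The levels of Mmp7 outside epithelial cells were therefore read against the markers Epcam, Krt8, Krt18, Cdh1 and Cldn7, since free RNA from a single source keeps its genes in a fixed ratio in every type. Per 1000 UMIs of these markers, epithelial cells of the F/F-labelled library had 47.5 Mmp7 UMIs and the other 10 types had 37.9 to 59.2, with a median of 44.7. Intervals of 7 of these 10 overlapped the epithelial interval. In the Mye_KO-labelled library epithelial cells had 28.3, while the 8 other types with at least 20 Mmp7 UMIs had 35.8 to 59.1, with a median of 48.4 and no overlap. Epithelial cells of the Mye_KO-labelled library thus had fewer Mmp7 UMIs per marker UMI than its other types, and the other types of both libraries had similar medians.

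For Mmp12 and Mmp13 the medians of the other types were near or above the macrophage ratio. Per 1000 UMIs of macrophage markers, Mmp12 stood at 301 in macrophages of the F/F-labelled library and at 168 to 362 (median 323) in the other types with at least 20 Mmp12 UMIs, and in the Mye_KO-labelled library at 115 and at 100 to 276 (median 173). Mmp13 gave 40.1 and 37.4 in macrophages, with medians of 47.5 and 40.7 elsewhere. Fibroblasts of the F/F-labelled library stood apart, with 833 Mmp13 UMIs per 1000, most of them from the cell described above. In the Mye_KO-labelled library the other types had 13.2 to 152, the highest in endothelial cells, with 34 Mmp13 UMIs. Mmp9 was above the neutrophil ratio in macrophages. Per 1000 UMIs of neutrophil markers it stood at 2.28 and 4.98 in neutrophils but at 214 and 98.3 in macrophages. For Mmp8 the ratio was 3.49 and 3.72 in neutrophils, 3.62 and 3.56 in T cells, and 21.6 and 14.9 in macrophages, where it too was above the neutrophil ratio. The source of these UMIs was not tested.

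**Figure D2:**
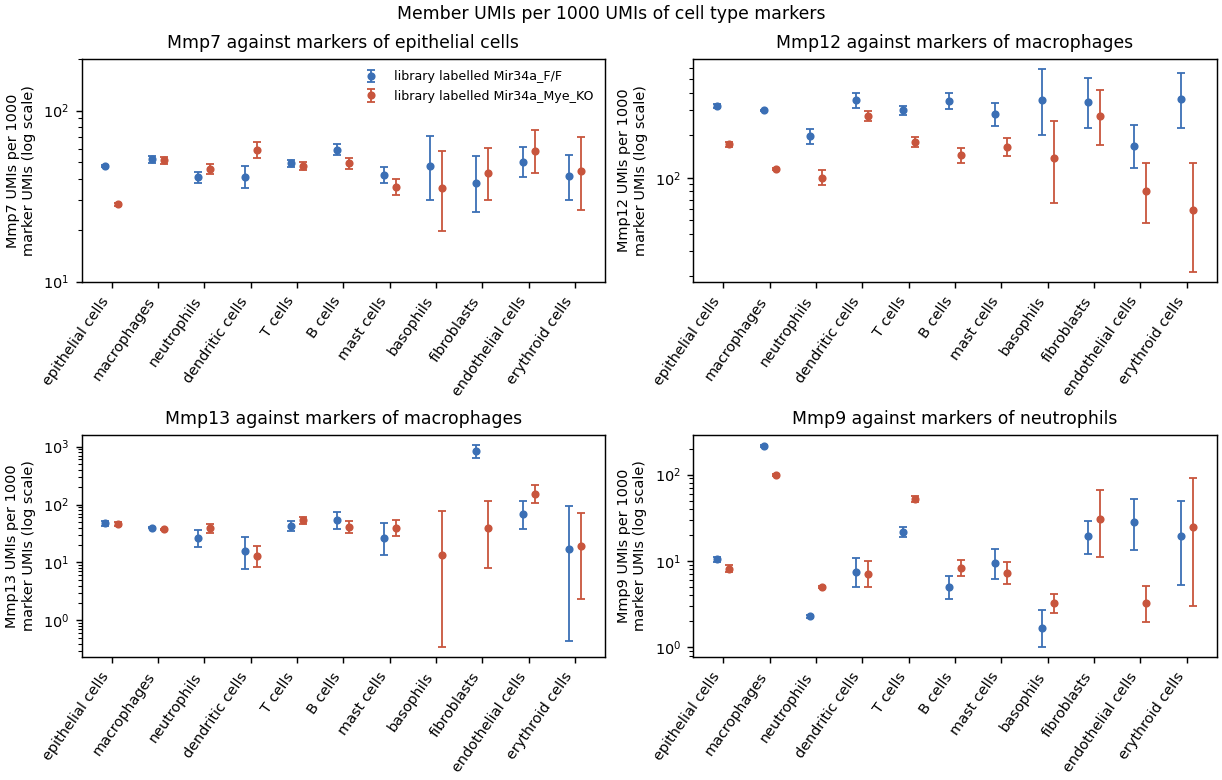
UMIs of Mmp7, Mmp12, Mmp13 and Mmp9 per 1000 UMIs of the markers of epithelial cells, macrophages, macrophages and neutrophils, in each cell type and library (logarithmic axes; bars are 95% counting intervals). Mmp7 lies between 28.3 and 59.2 in the types drawn, while Mmp9 reaches 214 in macrophages against 2.28 in neutrophils of the F/F-labelled library.

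Mmp10, stromelysin-2, had only 334 and 231 UMIs in all. Fibroblasts had 6.01 (5.17 to 6.94) in the F/F-labelled and 0.471 (0.322 to 0.665) in the Mye_KO-labelled library, which stands for 184 and 32 UMIs in 14 of 57 and 8 of 60 cells. Of the 184 UMIs, 110 came from 1 cell. In the Mye_KO-labelled library T cells and B cells held more of the Mmp10 UMIs (93 and 57) than fibroblasts did, at levels of 0.0388 and 0.0280, and 34 of the 93 came from 1 cell.

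Mmp14, the membrane-type protease MT1-MMP that acts at the cell surface and activates pro-MMP-2, was spread over stromal, myeloid and epithelial types. Fibroblasts had 6.07 (5.23 to 7.01) and 4.74 (4.23 to 5.28), macrophages 3.89 and 3.83, endothelial cells 2.02 and 2.06, and epithelial cells 1.08 and 0.689. The order of these 4 types was the same in both libraries, and neighbouring intervals did not overlap. Epithelial cells, the most numerous type, held 52.3% of Mmp14 UMIs in the F/F-labelled library and 28.8% in the Mye_KO-labelled one, and macrophages 38.7% and 60.1%. Mmp14 was detected in 68.8% and 68.1% of macrophages and in 70.2% and 75.0% of fibroblasts, against 16.6% and 21.8% of T cells. After thinning it was found in 26.9% and 25% of macrophages and in 5.03% and 3.63% of T cells.

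All 3 inhibitors were led by fibroblasts, a type of 57 and 60 cells, so that they carry wide intervals there. Timp3, which binds to the extracellular matrix and also inhibits ADAM proteases, stood at 22.6 (21.0 to 24.4) and 12.0 (11.2 to 12.9) in fibroblasts. In the F/F-labelled library 205 of 693 fibroblast UMIs of Timp3 came from 1 cell. Endothelial cells followed with 3.18 and 2.92 and epithelial cells with 1.17 and 0.991. Although their level was below that of fibroblasts and endothelial cells, epithelial cells held 83.0% and 75.5% of all Timp3 UMIs.

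Timp2, the inhibitor that pairs with MMP-14, stood at 5.03 (4.27 to 5.89) and 6.34 (5.76 to 6.97) in fibroblasts. Macrophages had 1.65 and 1.03, neutrophils 1.33 and 1.47, and endothelial cells 1.33 and 0.946, so that neutrophils moved ahead of macrophages in the Mye_KO-labelled library. Timp2 UMIs were found in 42.5% and 58.1% of neutrophils, but in 12.6% and 11.7% after thinning, against 5.93% and 4.28% of thinned T cells. Timp1, an inducible secreted inhibitor, had few UMIs (2215 and 1710 in all). Fibroblasts had 0.686 (0.424 to 1.05) and 1.63 (1.34 to 1.97), from 10 of 57 and 23 of 60 cells, and macrophages 0.510 and 0.299. Intervals of fibroblasts and macrophages overlapped in the F/F-labelled but not in the Mye_KO-labelled library, and macrophages held 44.8% and 58.1% of its UMIs.

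The ratio of protease to inhibitor UMIs differed between cell types. Summed over the 7 proteases and the 3 inhibitors, macrophages had 9.01 and 8.77 protease UMIs per inhibitor UMI, and neutrophils 6.46 and 6.49. Epithelial cells had 3.27 and 2.20, endothelial cells 0.93 and 0.98, and fibroblasts 0.59 and 0.31. B cells had 5.33 and 4.25, dendritic cells 5.02 and 3.61, and T cells 2.77 and 1.96. Most protease UMIs of these last types were of Mmp7 and Mmp12, which other types led. In the F/F-labelled library these were 662 and 240 of 1216 in B cells and 186 and 250 of 647 in dendritic cells. In T cells they were 1621 and 673 of 3331. The source of these UMIs was not tested. Fibroblasts had the lowest ratio of the 11 types in either library. UMIs of different genes need not be captured equally well, so this ratio is compared between types and not read as a balance of proteins.

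The comparison between genotypes asked whether members changed in cells with LysM-Cre. In macrophages, 0 members were at least 1.5-fold higher and 6 of 10 at least 1.5-fold lower in the Mye_KO-labelled library, against 5.99% and 14.9% of 16710 genes with at least 20 UMIs. The 6 were Mmp7, Mmp9, Mmp10, Mmp12, Timp1 and Timp2. Of these, Mmp7 was at -0.82, in cells whose summed epithelial markers were 16.6 and 9.56 per 10000, and the part of these markers was not tested. Its ratio was -0.29 by the mean over cells and -0.25 after thinning, both within 1.5-fold. The members' median log2 ratio was -0.73, and that of all genes -0.13. Mmp12 had a log2 ratio of -1.20 (-1.23 to -1.17) and Mmp9 of -0.87 (-0.93 to -0.81), while Timp1 and Timp2 had -0.77 and -0.69. Timp2 stayed within 1.5-fold by the mean over cells, at -0.46, and after thinning, at -0.51. The macrophages of the libraries also differed in genes of macrophage states. In the tercile of cells highest for each list, the summed level of 8 Arg1 and Spp1 macrophage genes was 73.9 and 40.4 per 10000, that of 8 monocyte genes 62.3 and 46.4, and that of 8 Mrc1 macrophage genes 21.7 and 33.4. The part of a different mix of macrophage states in the ratios of Mmp12, Mmp9 and Timp1 was not tested. Mmp13 at 0.08 and Mmp14 at -0.02 stayed within 1.5-fold, as did Timp3. Lyz2, the site of the Cre insertion, was lower in these cells as well, as given above, and its part in the difference was not tested.

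In neutrophils, 2 of the 9 members with at least 20 UMIs were at least 1.5-fold higher and 4 lower, against 6.64% and 23.5% of 13562 genes, with medians of -0.56 for the members and -0.25 for all genes. Mmp10 was not counted there. Mmp9 was higher at 0.63 (0.56 to 0.71), opposite to macrophages, but by the mean over cells it was at 0.53 and no longer past 1.5-fold. Also higher was Mmp13 at 0.83 (0.27 to 1.42). Per 1000 macrophage marker UMIs, Mmp13 in neutrophils stood at 26.2 and 38.9, against 40.1 and 37.4 in macrophages. Mmp8 had a log2 ratio of -0.40 (-0.47 to -0.33) and stayed within 1.5-fold, as did Timp2 at 0.14. The 4 lower members were Mmp7 at -0.71, Mmp12 at -0.71, Timp1 at -1.55 and Timp3 at -0.67, none of which was led by neutrophils. Summed epithelial markers in neutrophils were 33.9 and 18.4 per 10000 and macrophage markers 2.39 and 2.86, and their part in these values was not tested.

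Epithelial cells, which should lack LysM-Cre activity, differed as well. There 0 members were at least 1.5-fold higher and 5 of 10 lower, against 4.36% and 18.2% of 20726 genes, with a median of -0.61 for the members and -0.22 for all genes. Mmp7 was at -1.25 (-1.28 to -1.23), Timp1 at -1.53 (-1.71 to -1.35), Timp2 at -0.93 and Mmp14 at -0.65, with Mmp10 as the remaining one. By the mean over cells Timp2 and Mmp14 were at -0.42 and -0.36, and after thinning Timp1, Timp2 and Mmp14 were at -0.56, -0.33 and -0.36, all within 1.5-fold. Mmp14 and Timp2 also varied along stem cell genes within each library, as given below. The part of a different mix of epithelial states in the ratios between libraries was not tested. Mmp7 was also at least 1.5-fold lower in 9 of 11 types, among them T cells at -0.99, and Mmp12 in 9 of 11. Since free RNA of a library can reach all its cells, these types are not separate repeats of the difference. The summed epithelial markers in epithelial cells were also lower, at 80.6 and 56.9 per 10000, and their part in the difference of Mmp7 was not tested. Macrophage markers there were at 1.02 and 1.47 and B cell markers at 1.43 and 3.95. Neutrophil markers were at 7.99 and 7.47 and T cell markers at 0.352 and 0.270, and the part of these was not tested either. Epithelial cells had median mitochondrial shares of 11.2% and 18.3%, with 2328 of 11614 and 3825 of 9865 cells at or over 25%. When cells at or over 25% mitochondrial UMIs (2470 and 4130 cells of all types) were left out, the log2 ratio of Mmp7 in epithelial cells was -0.94. Mitochondrial UMIs count in the total behind every level, and their part in the members' ratios was not tested. With totals free of mitochondrial, immunoglobulin and ribosomal RNA-like genes, Timp3 in epithelial cells changed sign, as given at the end.

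In fibroblasts, 1 of 9 members was at least 1.5-fold higher and 6 were lower, against 14.7% and 19.6% of 7287 genes, with medians of -0.92 and -0.09. Mmp8 had too few UMIs to be counted. Timp1 was higher at 1.25 (0.57 to 2.00). Mmp10 at -3.67 (-4.26 to -3.13) and Timp3 at -0.91 (-1.06 to -0.76) were lower, and without the cell with the most UMIs in each library these were -2.89 and -0.58. By the mean over cells Timp3 was at -0.50 and after thinning at -0.19, so that it no longer passed 1.5-fold in any of these 3 settings. Mmp13 at -5.47, Mmp9 at -3.09, Mmp12 at -1.40 and Mmp7 at -0.92 made up the other lower members, whereas Mmp14 at -0.36 and Timp2 at 0.33 stayed within 1.5-fold. The Mmp13 ratio rests on 60 and 3 UMIs, and without the cell with the most UMIs in each library its levels were 0.399 and 0.0295. Markers of several other types also differed in fibroblasts. They were lower in the Mye_KO-labelled library, at 39.1 and 2.90 per 10000 for neutrophil markers, 2.35 and 1.12 for macrophage markers and 25 and 11.5 for epithelial markers, and higher at 0.979 and 2.49 for T cell, 1.18 and 2.84 for B cell and 0.457 and 1.21 for endothelial markers. The part of these markers in the members' differences was not tested. Mmp14 reached 0.17 when cells were thinned. The summed fibroblast markers Col1a1, Col1a2, Col3a1, Dcn and Pdgfra were 84.9 and 167 per 10000 in these cells, and their part in the differences was not tested. In endothelial cells 3 of 9 members were at least 1.5-fold higher and 2 lower, against 13.6% and 20.2% of 8484 genes. Mmp13 was at 1.09 (0.16 to 2.10), Mmp9 at 0.74 (-0.44 to 2.00), and Mmp8 had 0 and 35 UMIs. Mmp7 was at -1.17 and Mmp12 at -1.11, while Mmp14 and Timp3 were close to equal between libraries, at 0.03 and -0.12. Summed epithelial markers there were 29.6 and 11.4 per 10000 and neutrophil markers 5.25 and 74.9, and their part was not tested.

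**Figure D3:**
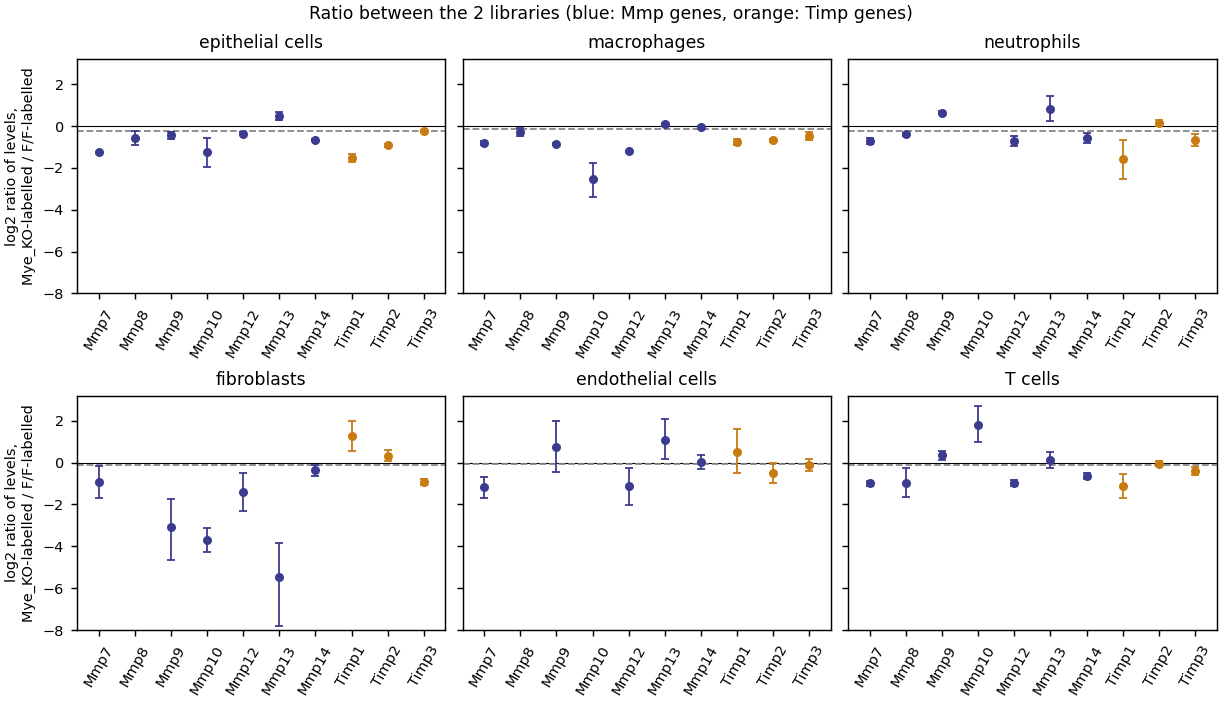
Log2 ratio of each member's level, library labelled Mir34a_Mye_KO over library labelled Mir34a_F/F, in 6 cell types; bars are 95% counting intervals, the dashed line is the median of all genes, and proteases are blue and inhibitors orange. Mmp9 lies at 0.63 in neutrophils and at -0.87 in macrophages, and Mmp12 in macrophages lies at -1.20.

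To see how members vary within a type, cells of each library were ordered by the UMI share of a gene list without members and divided into terciles. These are ranges of a score and not cell types. In neutrophils ordered by 12 granule genes, Mmp8 increased from 0.600 over 3.27 to 11.4 in the F/F-labelled library and from 0.307 over 2.43 to 8.25 in the Mye_KO-labelled one. Mmp9 increased from 1.81 over 3.05 to 5.41 and from 2.95 over 4.55 to 8.11. Timp2 went from 0.816 over 1.28 to 1.77 and from 0.866 over 1.29 to 2.03. The step between the outer terciles, on the log2 scale, was 4.25 and 4.75 for Mmp8 but 1.58 and 1.46 for Mmp9. Within the lowest, middle and highest tercile the log2 ratio of Mmp9 between libraries was 0.70, 0.58 and 0.58, and that of Mmp8 was -0.97, -0.43 and -0.47. Along genes of tumor-associated neutrophils the steps were smaller, at -0.47 and -0.71 for Mmp8 and 0.65 and 0.07 for Timp2, and Mmp9 had no shared direction, at 0.20 and -0.12.

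In macrophages, 8 monocyte genes ordered the members in opposite directions. From the lowest over the middle to the highest tercile, Mmp9 went from 2.96 over 2.78 to 0.248 in the F/F-labelled and from 1.74 over 1.47 to 0.321 in the Mye_KO-labelled library. Mmp13 went from 2.59 to 0.334 and from 2.43 to 0.451, and Timp2 from 2.67 to 0.348 and from 1.68 to 0.294. Timp1 instead increased from 0.0536 to 1.69 and from 0.0192 to 0.824, a log2 step of 4.98 and 5.42. The tercile highest in monocyte genes thus held the highest level of the inducible inhibitor Timp1 and the lowest levels of Mmp9, Mmp13, Mmp14 and Timp2 in both libraries. Mmp14 had a smaller step, from 4.79 to 2.29 and from 4.69 to 2.48. Mmp12 went from 18.5 over 13.2 to 1.37 in the F/F-labelled library but from 6.14 over 7.26 to 2.79 in the other, so that its log2 ratio between libraries was -1.59, -0.87 and 1.03 (0.91 to 1.16) in the 3 terciles. With macrophages split at the median score instead, Mmp12 was at -1.36 in the lower and at -0.20 (-0.26 to -0.13) in the upper part, so that the higher level was seen in the highest tercile but not in the upper part. Scores were divided within each library, so that a tercile need not hold the same cells in both.

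Ordered by Arg1 and Spp1 genes, which mark tissue-remodelling macrophages, Mmp12 increased from 5.04 over 7.89 to 22.9 and from 3.18 over 4.64 to 7.64. Mmp9 increased from 0.824 over 1.80 to 3.76 and from 0.727 over 1.05 to 1.69. Timp1 increased in both libraries too, whereas Timp2 increased from 1.16 to 2.04 in the F/F-labelled and decreased from 1.20 to 0.841 in the Mye_KO-labelled library. The log2 ratios between libraries widened along this order, from -0.67 over -0.77 to -1.58 for Mmp12 and from -0.18 over -0.78 to -1.15 for Mmp9. Along Mrc1 genes, which mark resident macrophages, the outer terciles differed by 0.49 and 1.44 on the log2 scale for Mmp13 and by 1.92 and 2.28 for Timp2, and by -1.74 and -3.23 for Timp1. Mmp12 was at -0.61 and -1.20 and Mmp14 at 0.28 and 0.35, while Mmp9 had no shared direction, at -0.18 and 0.75.

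In epithelial cells Mmp7 was concentrated where Paneth cell genes were high. Its level was 1.75, 1.94 and 12.2 over the terciles of the F/F-labelled and 0.794, 1.07 and 5.69 over those of the Mye_KO-labelled library. Cells of the highest tercile were shallower, with medians of 2937 and 2736 UMIs per cell. Along stem cell genes Mmp14 differed between outer terciles by 1.22 and 1.59 on the log2 scale and Timp2 by 2.44 and 2.37, while Timp3 differed by -0.34 and -0.52. Mmp7 had no shared direction there, at -0.10 and 1.10. Along differentiation genes the signs of Mmp14 and Timp2 turned, to -1.18 and -1.19 and to -2.68 and -2.26, while Mmp7 was at 1.0 and 0.50 and Timp3 at 0.47 and 0.58. Timp3 was higher in cells with high wound response genes, by 1.31 and 1.58, and Mmp7 lower, by -1.44 and -0.88. Of these 4 scores, the step of Mmp7 was highest along Paneth cell genes, at 2.80 and 2.84, and that of Timp3 along wound response genes.

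**Figure D4:**
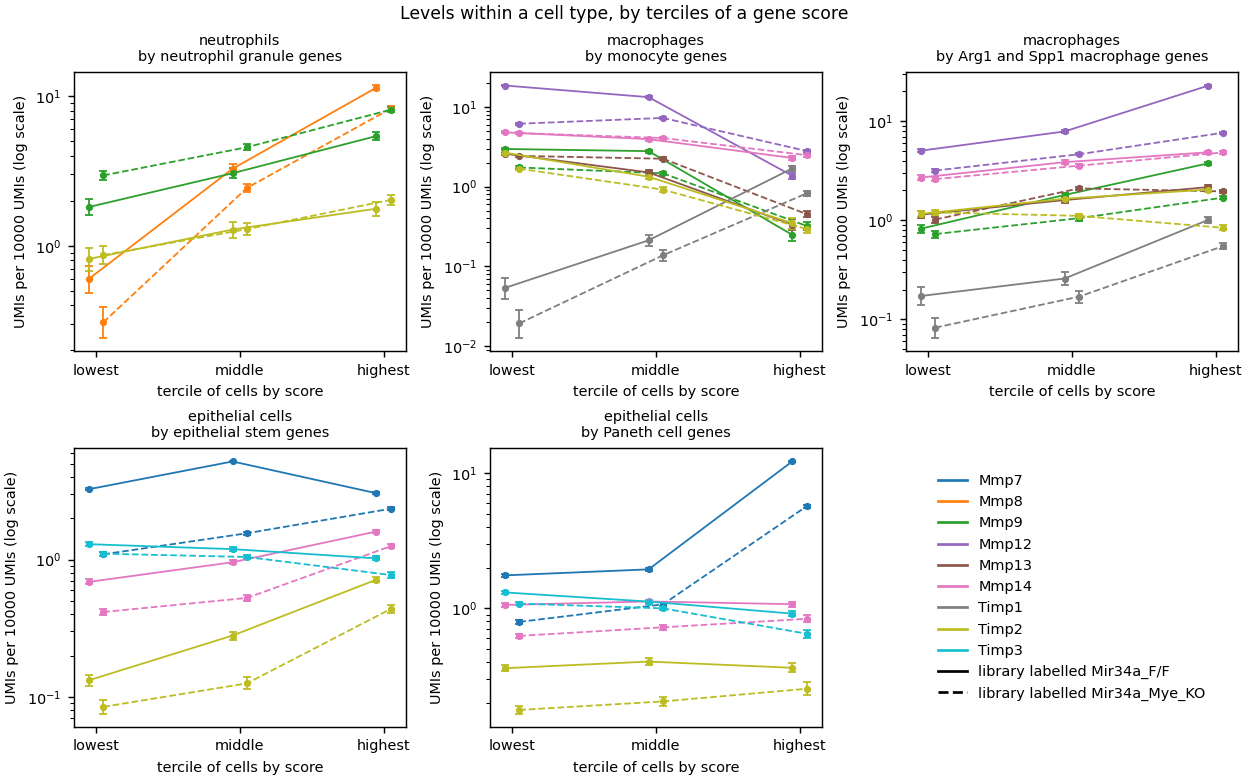
Levels of members (UMIs per 10000, logarithmic axis) in the lowest, middle and highest tercile of neutrophils, macrophages and epithelial cells by a gene score; solid lines are the library labelled Mir34a_F/F, dashed lines the library labelled Mir34a_Mye_KO, and bars 95% counting intervals. Mmp8 increases with granule genes from 0.600 to 11.4 in the F/F-labelled library, and Timp1 increases with monocyte genes from 0.0536 to 1.69 while Mmp9 goes from 2.96 to 0.248.

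Detection of members in the same cells differed between pairs. Among neutrophils thinned to 1000 UMIs, 41.7% of cells with Mmp9 also held Mmp8 in the F/F-labelled library, against 26.3% of cells without Mmp9, and the shares were 33.1% and 18.1% in the Mye_KO-labelled library. Of thinned macrophages with Mmp9, 41.4% and 30.1% also held Mmp12, against 22% and 16.8% of those without. Mmp13 followed Mmp12, at 13.5% and 21.5% against 5.95% and 6.64%, and Mmp14 followed Mmp13, at 40.2% and 37.9% against 25.8% and 23.7%. In epithelial cells Timp3 was found in 6.65% and 5.47% of cells with Mmp7 and in 8.74% and 7.67% of those without. Mmp14 went the other way, at 12.4% and 10.5% of epithelial cells with Mmp7 and at 9.03% and 7.05% of those without. Timp3 was found in 7.58% and 6.87% of epithelial cells with Mmp14 and in 8.47% and 7.42% of those without. In neutrophils Timp2 was found in 15.3% and 12.1% of cells with Mmp9 and in 11.5% and 11.5% of those without, which is nearly equal in the Mye_KO-labelled library. In fibroblasts Timp2 was found in 53.3% and 63.2% of cells with Mmp14 and in 28.2% and 26.8% of those without. These fibroblast shares rest on 54 and 60 thinned cells, and the shares with Mmp14 on 8 of 15 and 12 of 19.

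The genes with the most similar pattern over the 22 combinations of cell type and library were taken from 12147 genes, by Pearson's r on log2(level + 0.1). The points share libraries and free RNA, so r describes the pattern only. Mmp7 was most like Krt8 (r = 0.964), an epithelial keratin, Cldn7 (0.960), a tight junction protein, and Spink4 (0.955), a goblet and Paneth cell protein. Mmp8 was most like Fpr1 (0.979), a neutrophil receptor for bacterial peptides, Wfdc21 (0.973) and G0s2 (0.969). Mmp9 was most like Clec4d (0.960), a myeloid lectin receptor, Slc11a1 (0.950), a metal transporter of phagosomes, and Dmxl2 (0.950). Of the members themselves, Mmp8 and Mmp9 had r = 0.878, and Mmp14 and Timp1 0.873.

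The macrophage members had different partners. Mmp12 was closest to the lysosomal protein Ctsa (0.954), the chemokine Pf4 (0.919) and the amino acid transporter Slc7a2 (0.904), and Mmp13 to Slc38a6 (0.916) and Plxna4os1 (0.873). Mmp14 was closest to the neutrophil-attracting chemokine Cxcl1 (0.969), fibronectin Fn1 (0.957) and Myof (0.916). Mmp10 was closest to 9130015L21Rik (0.993), Pi15 (0.986) and the cytokine Il11 (0.984), a pattern carried by few fibroblasts. Among inhibitors, Timp1 was closest to Cmtm3 (0.914), Sulf2 (0.904) and Lifr (0.898), Timp2 to complement C3 (0.900), Pdpn (0.865) and Abcc5 (0.861), and Timp3 to Parva (0.981), Cald1 (0.977) and Kalrn (0.976), of which Parva and Cald1 act on the actin cytoskeleton.

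Other genes of the pathway were described from 4 lists. Their counts stand against the shares of all genes at least 1.5-fold higher and lower, which were 5.99% and 14.9% in macrophages, 6.64% and 23.5% in neutrophils, 4.36% and 18.2% in epithelial cells, and 14.7% and 19.6% in fibroblasts. With lists this short, 1 or 2 genes are a large share, and nothing is read from such counts. Of 17 other Mmp and Timp genes, 16 were in the table. In macrophages 2 of 10 with enough UMIs were at least 1.5-fold higher and 3 lower in the Mye_KO-labelled library, with a median log2 ratio of -0.09 against -0.13 for all genes. In neutrophils these counts were 2 and 1 of 5, in epithelial cells 2 and 1 of 12 and in fibroblasts 1 and 1 of 5. Mmp25, a membrane-anchored protease, was at 1.13 in macrophages (82 and 307 UMIs), and the stromelysin Mmp3 at 3.34, from only 3 and 52 UMIs. Mmp17 was at -1.01 (-2.04 to -0.05) in epithelial cells, from only 30 and 14 UMIs, and Mmp15 at -0.70 in macrophages. Mmp2, the gelatinase that MMP-14 activates, had its highest level in fibroblasts, at 3.62 and 3.60 (111 and 245 of 778 and 1337 UMIs), while macrophages, at a level of 0.267 and 0.268, held 520 and 892 of its UMIs.

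Of 14 ADAM and ADAMTS proteases, relatives that shed cell surface proteins or cleave proteoglycans, 1 of 12 was higher and 2 were lower in macrophages, 2 and 2 of 10 in neutrophils, 1 and 1 of 14 in epithelial cells, and 2 and 1 of 12 in fibroblasts. Adam19 was at 0.67 and Adamts1 at -0.90 in epithelial cells. In macrophages Adamts5 was at 0.73 and Adamts2 at -0.89, both with intervals that span 0. Of 14 activators and cofactors, 0 of 13 were higher and 2 lower in macrophages, 3 and 3 of 12 in neutrophils, 0 and 1 of 12 in epithelial cells, and 0 and 6 of 10 in fibroblasts, where their median was -0.69. Lcn2, whose human protein forms a complex with MMP-9, was the one lower in epithelial cells, at -1.82 with levels of 1.72 and 0.49. In neutrophils the mast cell proteases Mcpt4 and Cma1 were at 0.91 and 0.86. Summed mast cell markers there were 3.77 and 5.57 per 10000, and their part was not tested. The plasminogen activator Plat was at -1.0 in neutrophils, with levels of 0.775 and 0.388, against 1.79 and 1.31 in epithelial cells. Summed epithelial markers in neutrophils were 33.9 and 18.4 per 10000, and their part was not tested. Of 9 inhibitors and clearance genes, 1 of 7 was higher and 0 lower in macrophages and 0 and 4 of 7 were so in neutrophils, 0 and 0 of 8 in epithelial cells and 0 and 1 of 6 in fibroblasts. In neutrophils Serpine2, a serine protease inhibitor, was at -1.33 (-2.47 to -0.24), from only 19 and 13 UMIs. The membrane-bound MMP inhibitor Reck was at -1.02 there, from 13 and 11 UMIs and with an interval that spans 0. Tfpi2 was at 0.64 in macrophages, also spanning 0.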

How the data were processed

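Single-cell libraries (10x Genomics 3′ chemistry with sample multiplexing) were aligned by the authors with Cell Ranger 7.2.0 to mm10. Cells with more than 200 mRNAs and under 25% mitochondrial reads were to be kept, and doublets were removed with Scrublet, per the study's methods. The authors deposited 1 table of natural log values, ln(1 + UMIs per 10000 UMIs of the cell), with a cell type and library for each of 38883 cells. Whole UMIs were recovered from these deposited values and summed over the cells of a type and library. Columns of per-sample values that were left unused: 0. Cell types are the authors' annotation, and no clustering was done.

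Levels are UMIs per 10000 with exact Poisson intervals, shares have exact Clopper-Pearson intervals, and ratios between libraries have exact conditional binomial intervals, all at 95% and for counting error only. With 1 library per genotype no test was run and no p-value is given. Past 1.5-fold was counted among genes with at least 20 UMIs over both libraries. Thinning drew 1000 UMIs per cell without replacement and left out shallower cells. Named genes were the 10 members, the 3 genes most like each by r, and, per pathway list, the 2 largest ratios in each direction past 1.5-fold in macrophages, neutrophils or epithelial cells. A gene that this rule names for Mmp13 is not reported here. Mmp2 and Lyz2 were named beyond this rule, after their values were seen. The members and lists were chosen with earlier results of these data known. Promoters and miR-34a are from RefSeq, gene positions and 3′ UTRs from GENCODE on GRCm38. Alternatives were the mean over cells, thinning, a pseudocount of 0.1, subtraction of the T cell level, stricter cell filters, totals without 411 mitochondrial, immunoglobulin and ribosomal RNA-like genes, other UMI minimums and halved groups in place of terciles. Leaving out the cell with the most UMIs was added after seeing the data. The interval code was tested on simulated data. Python 3.11.15, numpy 2.4.6, scipy 1.17.1, pandas 2.3.3 and matplotlib 3.10.9 were used.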

Additional observations from a re-analysis of the deposited data

Results flagged for a closer look

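Several members had ratios past 1.5-fold in opposite directions in different cell types, each from at least 100 UMIs. How many of all genes had such opposite ratios was not counted, so nothing is read from the number of members listed. With 1 library per genotype the differences between types were not tested. Of all genes with at least 20 UMIs, 4.03% were at least 1.5-fold higher and 16.9% lower in T cells. In dendritic cells these shares were 8.02% and 12.1%. On the log2 scale, Mye_KO-labelled over F/F-labelled library, Mmp9 was at 0.63 in neutrophils (0.53, within 1.5-fold, by the mean over cells) and at -0.87 in macrophages. Mmp10 was at 1.79 in T cells and at -3.67 in fibroblasts, where 110 of 184 UMIs of the F/F-labelled library came from 1 cell. Mmp13 was at 0.83 in neutrophils and at -0.64 in B cells, where the median of all genes was -0.38 and 33.2% of genes were at least 1.5-fold lower. Timp1 was at 1.25 in fibroblasts and 0.60 in dendritic cells, and at -0.77 in macrophages, -1.11 in T cells and -1.53 in epithelial cells. After thinning Timp1 was at -0.56 in epithelial cells, within 1.5-fold, and had no value in fibroblasts.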

How the results depend on the processing

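All values here are log2 ratios in the leading type unless a share is named. The mean over cells gave -0.73 for Mmp7, -0.48 for Mmp8, 0.53 for Mmp9, -0.80 for Mmp12, 0.056 for Timp2 and -0.50 for Timp3. Thinning gave -0.75 for Mmp7, -0.57 for Mmp8, -4.54 for Mmp10, -0.88 for Mmp12, 0.0064 for Mmp13, 0.054 for Timp2 and -0.19 for Timp3, and it turned Mmp14 to 0.17 and Timp2 in neutrophils to -0.069. It gave no value for Timp1, which no thinned fibroblast of the F/F-labelled library held. Totals without mitochondrial, immunoglobulin and ribosomal RNA-like genes gave -0.94 for Mmp7, -0.31 for Mmp8, 0.72 for Mmp9, -1.13 for Mmp12 and 0.15 for Mmp13, and turned Timp3 in epithelial cells to 0.077. Mmp7 was at -1.20 with a pseudocount of 0.1, -1.39 with the T cell level subtracted, -0.72 under the strict cell filter and -0.94 under 25% mitochondrial UMIs. Without the cell with the most UMIs, an alternative chosen after seeing the data, Mmp10 was at -2.89 and Timp3 at -0.58. The share of all genes past 1.5-fold with at least 100 UMIs was 2.45% (epithelial cells, higher), 9.26% (macrophages, lower) and 11.1% (fibroblasts, lower), and with 1 UMI in each library 8.62% and 23.3% for the first 2. The cause of these shifts was not tested. With cells split at the median score in place of terciles, 68 of 88 steps moved beyond their counting interval and 20 did not, and 1 of 88 changed sign (Timp1 along Paneth cell genes, from 0.18 to -0.04 in the Mye_KO-labelled library). No paired analysis was possible because each genotype was 1 library. Fibroblast values rest on 57 and 60 cells, and basophil and erythroid values on 48 and 40 and on 106 and 30 cells.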
